A study of Mus musculus with 12 samples.

Results

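A set of 10 transcription factors of the immediate early class was followed in muscle that had lost its nerve: Fos, Fosl2, Jun, Junb, Jund, Egr1, Egr2, Myc, Nr4a1 and Nr4a3. They were chosen by name, with earlier results of these data known. All 10 genes had a probe on the array, 14 probes in all, out of 27597 genes or names and 41174 probes. Jund carries its older name Jund1 in the files and was matched through its accession. A probe well above background on all 3 arrays of at least 1 group was kept, and the brightest such probe stood for its gene. By this filter 9 of the 10 genes were tested, among 15226 genes in all.

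RNA of whole gastrocnemius, a calf muscle, came from adult male CD1 mice, with 1 one-colour array for each of 12 muscles. The 4 groups of 3 arrays were Smad4 knockout muscle after 14 days of denervation (KO denervated), Smad4 knockout control muscle (KO control), wild-type muscle after 14 days of denervation (WT denervated) and wild-type control muscle (WT control). Control muscle is called innervated in the study's design text. Smad4 is the partner that receptor-activated Smads share. The labels do not give the cells in which it was deleted, the driver of the deletion, or how denervation was done. Different animals were used for each experiment, per the design text. Whole muscle holds fibres, vessels, nerve and immune cells, and fewer cells of a type cannot be told apart from less RNA per cell.

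Immediate early genes are switched on by existing transcription factors soon after a stimulus, without new protein synthesis, and their messenger RNAs are short-lived. Fos and Jun family proteins pair through leucine zippers to form the AP-1 factor. Egr proteins bind with zinc fingers, Myc pairs with Max, and Nr4a proteins are orphan nuclear receptors. In muscle, contraction and calcium act on several of these genes, which is why they are described as activity-linked.

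Both Smad4 probes were lower on each of the 6 KO arrays than on any WT array. The brighter one had 1183.2, 1139.8 and 1350.7 intensity units in KO denervated muscle and 1441.4, 1240.7 and 1151.3 in KO control muscle, against 2782.9, 2464.6 and 2897.3 in WT denervated and 3923.4, 3415.9 and 3947.3 in WT control muscle. Between 49.9% and 56.4% of the probes of an array were well above background, and no spot was saturated. Of the muscle markers, 10 of 10 were well above background on all 12 arrays. The denervation markers, acetylcholine receptor subunits and their regulators among them, were higher in 10 of 10 cases in both genotypes. The arrays lay on 4 slides, and no slide held all 4 groups. They were scanned on 2 days, with slide 4 alone on day 2. Slide 4 held KO denervated replicate 2, KO control replicate 1 and WT denervated replicates 2 and 3, and no WT control array.

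The 250 bases upstream of the annotated start are shown for the 4 genes that changed with denervation in both genotypes and for Fos, which did not pass the test in either. The sequences are RefSeq's on build GRCm38.p6, 5′ to 3′ on the gene's strand, where 8 of the 10 genes had an entry. Nr4a1 lies on the plus strand at chr15:101266596-101266845, Jun on the minus strand at chr4:95052223-95052472, Junb on the minus strand at chr8:84978749-84978998, Fosl2 on the plus strand at chr5:32136222-32136471 and Fos on the plus strand at chr12:85473640-85473889. Capitals mark matches to the motifs searched on both strands: the cyclic AMP response element half-site TGACG, the AP-1 site TGACTCA, the E-box CACGTG, the Nr4a site AAAGGTCA, the TATA box TATAAA, the CArG box bound by serum response factor and the MEF2 site.
Nr4a1: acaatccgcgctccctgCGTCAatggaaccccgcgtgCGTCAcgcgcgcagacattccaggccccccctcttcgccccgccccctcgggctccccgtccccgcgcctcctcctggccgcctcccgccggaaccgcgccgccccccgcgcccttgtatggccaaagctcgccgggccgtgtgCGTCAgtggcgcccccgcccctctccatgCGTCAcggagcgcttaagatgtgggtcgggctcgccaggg
Jun: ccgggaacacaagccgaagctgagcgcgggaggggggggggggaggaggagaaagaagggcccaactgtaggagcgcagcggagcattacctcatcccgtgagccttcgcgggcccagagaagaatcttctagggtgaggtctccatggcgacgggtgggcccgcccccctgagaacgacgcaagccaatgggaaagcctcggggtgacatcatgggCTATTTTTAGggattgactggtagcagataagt
Junb: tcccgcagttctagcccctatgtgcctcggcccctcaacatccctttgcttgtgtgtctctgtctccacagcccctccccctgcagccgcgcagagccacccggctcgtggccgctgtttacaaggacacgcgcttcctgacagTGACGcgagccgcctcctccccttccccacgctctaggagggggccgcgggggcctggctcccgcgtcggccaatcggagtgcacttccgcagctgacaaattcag
Fosl2: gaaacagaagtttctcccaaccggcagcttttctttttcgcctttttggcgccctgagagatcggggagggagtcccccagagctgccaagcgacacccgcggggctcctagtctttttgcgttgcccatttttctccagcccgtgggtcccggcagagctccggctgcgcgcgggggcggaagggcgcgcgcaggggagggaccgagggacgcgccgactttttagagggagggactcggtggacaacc
Fos: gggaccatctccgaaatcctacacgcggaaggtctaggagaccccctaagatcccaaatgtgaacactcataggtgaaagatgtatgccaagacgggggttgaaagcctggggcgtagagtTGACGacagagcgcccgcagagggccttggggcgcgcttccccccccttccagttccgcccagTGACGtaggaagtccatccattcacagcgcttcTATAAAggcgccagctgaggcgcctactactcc
The half-site TGACG, read on either strand, occurred 4 times in the Nr4a1 window, 2 times in that of Fos and 1 time in that of Junb. It was found in 17.9% of 32536 promoter windows of the same length. The Jun window held a MEF2 site 33 bases before the start, a motif present in 2.89% of windows, and the Fos window a TATA box 33 bases before the start, present in 12.3%. No motif searched was found in the Fosl2 window. None of the 5 windows held a match to the AP-1, E-box, Nr4a or CArG motif as searched. Those matches occurred in 4.45%, 6.04%, 1.35% and 1.48% of windows. Variants of the motifs were not searched, so absence of such sites is not shown. All matches given here describe letters only.

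Nr4a1 was lower in denervated muscle of both genotypes, while the AP-1 genes Jun, Junb and Fosl2 were higher in both. Myc was higher in KO denervated muscle on its brightest probe, but did not pass with the mean of its kept probes. Its response was not called different between genotypes. Of the 9 genes tested, 5 passed an adjusted p of 0.05 in KO muscle, 4 higher and 1 lower, against 47.0% of all genes tested (23.7% higher, 23.2% lower). In WT muscle 4 of 9 passed, 3 higher and 1 lower, against 39.2% of all genes (18.7% higher, 20.6% lower). The shares of the 9 genes, 55.6% in KO and 44.4% in WT muscle, were near those of all genes. The denervated and control arrays did not overlap for 5 of the 9 in each genotype, and for 56.7% of all genes in KO and 53.0% in WT muscle. Adjusted p-values are from limma over all 15226 genes, and a difference is in log2 units of signal scaled to the array's 75th percentile.

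Nr4a1 encodes an orphan nuclear receptor (also called Nur77) that in rodent muscle acts on genes of glucose use. It had 2774.0, 2162.5 and 1655.2 intensity units in KO denervated muscle, against 21762.0, 12573.0 and 12435.9 in KO control muscle. In WT denervated muscle the values were 954.4, 2038.4 and 2326.0, against 17704.1, 17002.2 and 17974.7 in WT control muscle. Each denervated array lay below each control array, and the 2 genotypes overlapped within a condition. The difference was -3.17 ± 0.38 in KO muscle (SE, n = 3 against 3; limma adjusted p = 6.38e-05), a 9.03-fold fall. In WT muscle it was -3.41 ± 0.38 (adjusted p = 5.21e-05), a 10.6-fold fall. The probe lies at chr15:101102674-101102733 (mm8, the files' build). Nr4a3, a receptor of the same family, was not well above background on any of the 12 arrays, so no level or fold is given for it. Its probe is mapped across 3187 bases in mm8.

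Jun encodes an AP-1 subunit that can pair with itself or with a Fos protein. Its probe, at chr4:94541191-94541250 (mm8), was printed on 10 spots. It had 3011.7, 2873.9 and 3054.8 intensity units in KO denervated muscle, against 1066.0, 600.1 and 505.6 in KO control muscle. WT denervated muscle had 3560.8, 2516.4 and 3511.4, against 738.7, 524.1 and 575.9 in WT control muscle. All denervated arrays stood above all control arrays. The rise was 1.75 ± 0.23 in KO muscle (3.36-fold, adjusted p = 1.09e-04) and 2.38 ± 0.23 in WT muscle (5.21-fold, adjusted p = 1.57e-05).

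Junb encodes a further Jun protein and Fosl2 a Fos relative that lacks the strong activating region of Fos. Junb had 15535.3, 12343.1 and 8508.5 intensity units in KO denervated muscle, against 3354.9, 1599.0 and 1760.0 in KO control muscle. It had 9023.5, 7216.5 and 13679.5 in WT denervated muscle, against 2336.1, 2069.9 and 2458.3 in WT control muscle. The denervated and control arrays did not overlap in either genotype. Junb rose by 2.11 ± 0.31 in KO muscle (4.32-fold, adjusted p = 2.65e-04) and by 2.08 ± 0.31 in WT muscle (4.22-fold, adjusted p = 3.96e-04). A second Junb probe that shares part of its sequence with the first rose by 1.82 and 1.78.

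Fosl2 had 902.0, 542.8 and 584.9 intensity units in KO denervated muscle, against 263.2, 93.8 and 101.3 in KO control muscle. In WT denervated muscle it had 466.6, 333.2 and 452.8, against 159.3, 119.7 and 128.5 in WT control muscle. KO control replicate 1 was the highest control array, and still below all denervated ones. Fosl2 rose by 1.91 ± 0.31 in KO muscle (3.76-fold, adjusted p = 5.20e-04) and by 1.62 ± 0.31 in WT muscle (3.07-fold, adjusted p = 2.01e-03). The second Fosl2 probe was well above background on 3 KO denervated arrays and on none of the KO control arrays, so KO denervated muscle was at least 1.73-fold higher. That bound sets the dim arrays at their lowest signal well above background, or at the probe's own signal if higher. Its adjusted p of 0.0297 in KO muscle was 0.0565 to 0.0968 when 1 of 5 KO arrays was left out, all but KO denervated replicate 2. With normexp background correction its KO difference was 0.36 (adjusted p = 0.617), against 1.29. In WT muscle its difference of 0.90 had an adjusted p of 0.124, or 0.0225 with the replicate block within genotype and 0.0327 without WT control replicate 3. On this probe 1 WT denervated array was well above background.

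**Figure D1:**
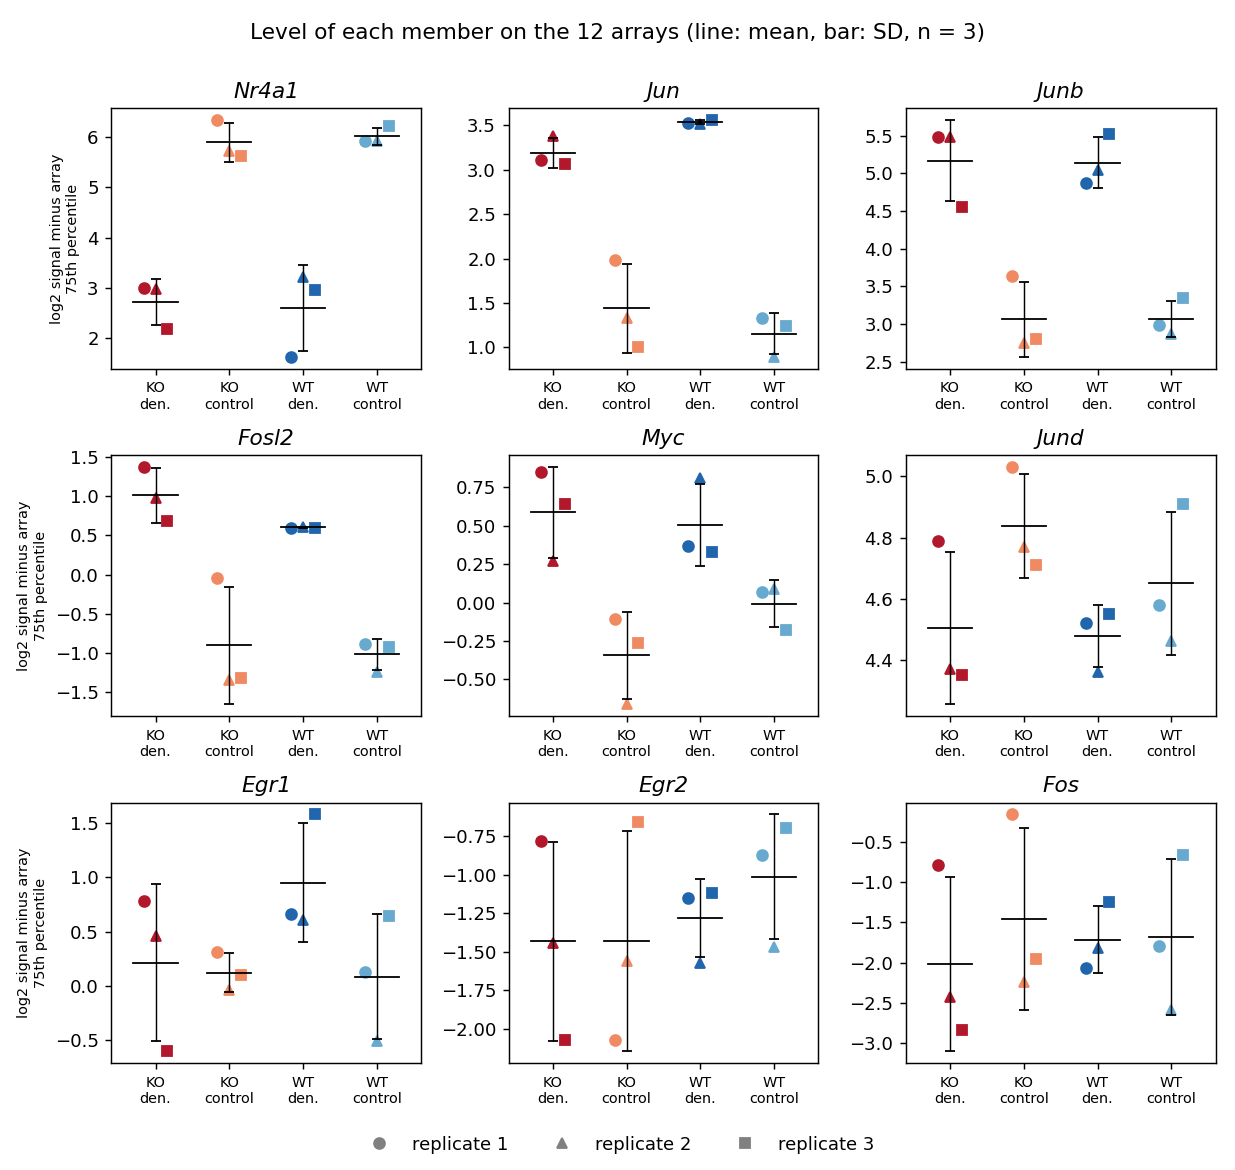
Signal of the 9 genes tested on each of the 12 arrays, in log2 units relative to each array's own 75th percentile, with vertical scales that differ between panels. Horizontal lines are group means and bars are SD (n = 3); the denervated arrays of Nr4a1 lie below all control arrays, and those of Jun, Junb and Fosl2 above them.

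Myc, a growth regulator that pairs with Max, had 625.2, 332.9 and 565.5 intensity units in KO denervated muscle, against 249.8, 150.8 and 210.8 in KO control muscle. It had 397.2, 382.1 and 376.0 in WT denervated muscle, against 308.0, 301.2 and 215.0 in WT control muscle. The groups did not overlap in either genotype. Myc rose by 0.93 ± 0.20 in KO muscle (1.90-fold, adjusted p = 3.37e-03). The difference of 0.51 ± 0.20 in WT muscle had an adjusted p of 0.0695. With the replicate number as a block within genotype that adjusted p was 0.0291, but the labels do not state that same-numbered arrays are paired. The 3 Myc probes did not give one answer. The probe at chr15:61819528-61819587 (mm8) differed by 0.88 in KO (adjusted p = 0.0138, or 0.0540 without KO control replicate 2; 0.52 with adjusted p = 0.0957 under normexp background correction) and 0.48 in WT muscle, whereas the dim probe at chr15:61819036-61819095 differed by -0.46 in KO and 0.22 in WT muscle. On the dim probe KO control replicate 1 read 118.6 intensity units, against 18.9 and 30.7 on the other KO control arrays. With the mean of the 3 probes the Myc difference in KO muscle was 0.45 (adjusted p = 0.238).

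Fos, Egr1, Egr2 and Jund did not pass the test in either genotype, and their arrays overlapped between denervated and control muscle. Fos, the AP-1 subunit often used as a marker of recent activity, had 200.6, 51.3 and 51.3 intensity units in KO denervated muscle, against 241.1, 50.4 and 64.9 in KO control muscle. It had 73.5, 61.9 and 125.1 in WT denervated muscle, against 84.9, 47.1 and 152.4 in WT control muscle. The spread between arrays of a group was as wide as between groups. The Fos difference was -0.56 in KO muscle (95% interval -2.01 to 0.89, adjusted p = 0.51) and -0.03 in WT muscle (-1.48 to 1.42, adjusted p = 0.976). These intervals include changes of more than 2-fold in either direction for WT muscle.

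Egr1, a zinc finger factor induced through serum response elements, had 597.5, 378.7 and 239.4 intensity units in KO denervated muscle, against 335.4, 232.7 and 270.2 in KO control muscle. It had 487.2, 334.5 and 893.2 in WT denervated muscle, against 321.0, 198.8 and 378.8 in WT control muscle. Its difference was 0.09 ± 0.39 in KO muscle (adjusted p = 0.874) and 0.87 ± 0.39 in WT muscle (adjusted p = 0.102). With the replicate block within genotype, a pairing that the labels do not state, the WT adjusted p was 0.0339. Egr2, best known from myelinating Schwann cells, ranged from 64.1 to 203.0 intensity units over all 12 arrays. Its difference was 0.00 in KO muscle (95% interval -0.85 to 0.85) and -0.26 in WT muscle (-1.11 to 0.59). The Schwann cell markers were lower in 8 of 11 cases in KO and 7 of 11 in WT denervated muscle. In each genotype 1 was higher. Of all genes 23.2% were lower in KO and 20.6% in WT muscle. The summed levels of these markers, as multiples of the 75th percentile, were 8.19 to 9.07 against 16.8 to 34.6 in KO muscle. In WT muscle they were 6.18 to 8.57 against 18.6 to 29.8. Their part in the Egr2 values was not tested.

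Jund, the Jun protein present in resting cells, ranged from 4496.0 to 9633.2 intensity units over the 12 arrays. Its difference was -0.33 in KO muscle (95% interval -0.71 to 0.04, adjusted p = 0.131) and -0.17 in WT muscle (-0.55 to 0.21). Without KO denervated replicate 1 the KO value was -0.48 (adjusted p = 0.0476).

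**Figure D2:**
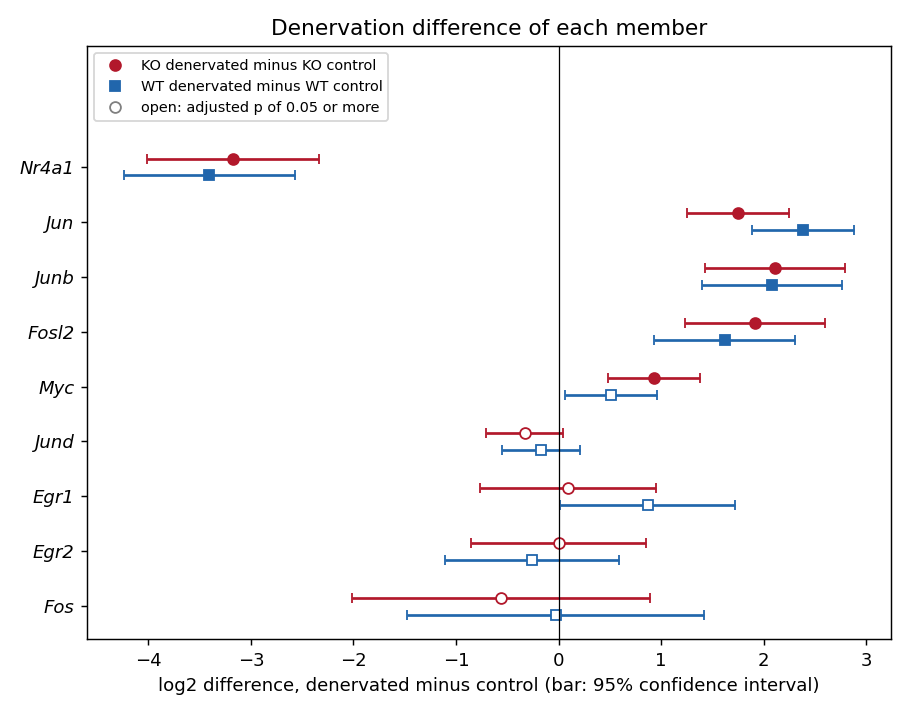
Difference between denervated and control muscle (log2 units, horizontal axis) for each gene, KO above WT, with 95% confidence intervals. Filled symbols have an adjusted p under 0.05: Nr4a1, Jun, Junb and Fosl2 are filled in both genotypes, Myc in KO only, which is not a test of a difference between genotypes.

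Slides 1, 3 and 4 each held a denervated and a control array of 1 genotype, with 1 array on each side. On slides 3 and 4 the KO difference of Nr4a1 was -3.44 and -3.36, and on slide 1 the WT difference was -4.28. For Jun the KO values were 2.07 and 1.40 and the WT value 2.20. Junb gave 1.75 and 1.85 in KO and 1.88 in WT muscle, and Fosl2 2.00 and 1.01 in KO and 1.48 in WT muscle. Each of these had the sign found over all arrays. With the slide as a fixed block the KO differences of Nr4a1, Jun, Junb and Fosl2 were -3.18, 1.63, 1.96 and 1.66, and all 4 passed the test. In WT muscle they were -3.97, 2.02, 1.56 and 1.11, and all 4 passed.

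Several lists of cell markers differed between denervated and control muscle too, where 23.2% of all genes were lower in KO and 20.6% in WT muscle. Endothelial markers were lower in 10 of 12 cases in KO and 9 of 12 in WT denervated muscle, and erythrocyte markers in 6 of 6 in both. Smooth muscle and pericyte markers were lower in 3 of 10 cases in KO and 5 of 10 in WT muscle. The muscle identity genes were lower in 7 of 10 cases in KO and 2 of 10 in WT muscle, with median differences of -0.82 in KO and -0.14 in WT muscle. Macrophage markers were higher in 6 of 12 cases in KO muscle, where 23.7% of all genes were higher. In WT muscle 2 of 12 were higher, a share below the 18.7% of all genes. Their summed levels were 52.0 to 77.7 against 25.2 to 59.9 in KO and 45.5 to 55.6 against 29.8 to 46.7 in WT muscle. The part of these cell types in the values of the immediate early genes was not tested.

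No gene of the 9 differed between KO and WT muscle by the test. In denervated muscle 2.19% of all genes passed, and the smallest adjusted p of the 9 was 0.38, for Egr1 (-0.74 ± 0.39). At an unadjusted p under 0.05 the count was also 0 of 9, against 2487 of all 15226 genes tested. Jun was lower on each KO denervated array than on each WT denervated array after scaling, by 0.35 (95% interval -0.85 to 0.15, adjusted p = 0.485), and Fosl2 was higher on each, by 0.41 (-0.28 to 1.09, adjusted p = 0.561). Groups of arrays that did not overlap were found for 21.7% of all genes in this comparison. In control muscle 0.00657% of all genes passed, and the differences of the 9 genes lay between -0.42 and 0.28. Arrays of the genotypes overlapped for all 9 genes there, and did not for 8.57% of all genes.

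The denervation response itself was compared between genotypes by an interaction term, which 0.184% of all genes passed and none of the 9. The largest value was that of Egr1, -0.78 ± 0.55 (adjusted p = 0.707). For Jun it was -0.63 (95% interval -1.33 to 0.07, adjusted p = 0.572), and for Nr4a1 0.23 (-0.95 to 1.41). For Myc, called in KO muscle only, the interaction was 0.42 (-0.21 to 1.06, adjusted p = 0.696). A p that misses the threshold does not show equal responses, and the Nr4a1 interval spans a ratio of 0.517 to 2.66. Averaged over conditions, where 0.919% of all genes passed, the 9 genes lay between -0.35 and 0.26, with 0 called.

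Arrays of a group differed in the same direction for many of these genes. KO denervated replicate 1 was the highest of its group for 7 of 9 genes and replicate 3 the lowest for 8. KO control replicate 1, the only KO control array of slide 4 and scan day 2, was the highest for 8 of 9. WT control replicate 2 was the lowest for 8 of 9. This order was not counted over all genes, so it is not shown to be particular to these 9. The part of slide and scan day in it was not tested. Within groups, Fos had a pooled SD of 0.94, above 98.2% of all genes tested, Egr1 0.54, Egr2 0.54 and Nr4a1 0.53, against a median of 0.26 over all genes. Jund, at 0.20, lay below the median. KO control replicate 1 also had the highest macrophage and fibroblast sums of its group, 59.9 against 42.6 and 25.2, and 347 against 201 and 216. On the arrays highest for Fos in the other groups these sums were mixed. KO denervated replicate 1 had 63.7 against 77.7 and 52.0, and 294 against 229 and 222. WT denervated replicate 3 had 52.8 against 45.5 and 55.6, and 186 against 203 and 223. WT control replicate 3 had 46.7 against 29.8 and 38.6, and 227 against 238 and 239. The part of both cell types in the Fos values was not tested. Without both replicate 1 arrays of the KO, the same 5 genes passed in KO muscle and the same 4 in WT muscle.

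**Figure D3:**
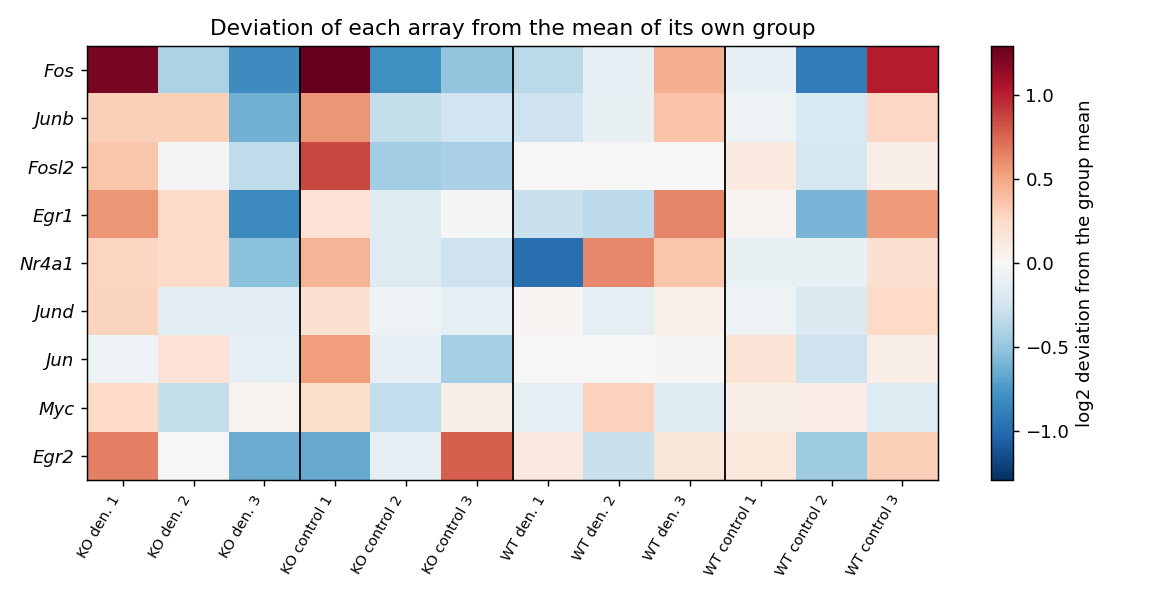
Deviation of each array (columns) from the mean of its own group for the 9 genes (rows), in log2 units, red above and blue below the mean. KO control replicate 1 lies above its group mean for 8 of 9 genes, and the Fos row has the widest range, 2.20.

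Genes whose deviations from the group means were most like those of Fos over the 12 arrays were Dusp1, a phosphatase of MAP kinases and itself an immediate early gene (Pearson r = 0.982), Atp8b2 (r = 0.975) and Ugdh (r = 0.947). For Egr1 the first was Ier2, an immediate early gene (r = 0.945), and for Myc it was Chac1 (r = 0.938). Over the 12 array values themselves, the genes most like Nr4a1 were Ramp1, a partner of the calcitonin receptor-like receptor (r = 0.992), Tspan8 (r = 0.982) and Tlcd3b (r = 0.981). Those most like Junb were Sik1, a kinase induced by cyclic AMP (r = 0.977), Abca1 (r = 0.974) and Traf3ip3 (r = 0.970). Among the genes most like Jun were Timp1 (r = 0.984) and Vma21 (r = 0.982), and Fosl2 was most like Sgpl1 (r = 0.985), Dll1 (r = 0.975) and Wdr70 (r = 0.974). These r values describe arrays that share groups and scaling.

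Other AP-1, ATF and Maf genes that passed the test were mostly lower. Of 16 tested among 18, 1 was higher and 6 lower in KO denervated muscle, and 2 higher and 8 lower in WT denervated muscle, with medians of -0.44 and -0.63 against 0.00 and -0.02 over all genes. In all 43.8% passed in KO and 62.5% in WT muscle, against 47.0% and 39.2% of all genes. Maf, a basic leucine zipper factor, fell by 1.82 in KO (adjusted p = 7.46e-05) and fell by 2.22 in WT muscle (adjusted p = 2.41e-05). Atf4, the effector of the integrated stress response, fell by 0.93 in KO and fell by 1.03 in WT muscle. Atf3, a stress-induced relative, rose by 2.06 in WT muscle (adjusted p = 2.99e-03), where KO muscle had a difference of 0.66 (adjusted p = 0.226). The interaction of Atf3 was -1.41 (adjusted p = 0.495), so its response was not called different between genotypes. Fosb and Fosl1, the remaining Fos genes, did not pass the filter.

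Of 44 other immediate early genes tested, 12 were higher and 10 lower in KO, and 11 higher and 8 lower in WT denervated muscle. These 22 and 19 genes are shares near the 47.0% and 39.2% of all genes that passed. Sik1 rose by 3.53 in KO (adjusted p = 6.50e-06) and by 3.40 in WT muscle. Dusp4, a phosphatase of MAP kinases, rose by 2.94 in KO and by 3.94 in WT muscle. Arc, an activity-regulated cytoskeletal gene, was not well above background on any KO denervated array and was at least 3.90-fold lower there than in KO control muscle. In WT muscle Arc fell by 2.36 (adjusted p = 2.82e-05), and 2 of 3 denervated arrays measured it. The Arc probe passed the filter only through control muscle, where it was high, so these tests are not independent of the filter. Homer1, a synaptic scaffold gene with an activity-induced short form, fell by 2.13 in KO and fell by 1.80 in WT muscle.

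Egr3, of the same family as Egr1 and Egr2, was the 1 gene of this list to pass between genotypes in denervated muscle. It had 614.4, 719.4 and 348.2 intensity units in KO denervated muscle, against 24.0, 9.0 and 184.0 in WT denervated muscle. All KO arrays lay above all WT arrays, but 2 of 3 WT arrays were well above background, and a second Egr3 probe was not well above background anywhere. The difference was 3.71 ± 0.81 (adjusted p = 0.0396). The probe passed the filter only through KO denervated muscle, the group where it was high, so this test is not independent of the filter. The interaction of Egr3 was 3.67 ± 1.14 (adjusted p = 0.301), and its difference averaged over conditions was 1.87 ± 0.57 (adjusted p = 0.202). Neither passed. On the control arrays of both genotypes Egr3 was not well above background.

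Among 33 upstream regulators tested, 9 were higher and 15 lower in KO, and 8 higher and 11 lower in WT denervated muscle. In all 72.7% passed in KO and 57.6% in WT muscle, against 47.0% and 39.2% of all genes. Camk2a, a calcium-calmodulin kinase, fell by 2.74 in KO and fell by 3.13 in WT muscle. The ribosomal S6 kinase gene Rps6ka2 fell by 2.64 in KO and fell by 2.47 in WT muscle. Mef2a, which binds the MEF2 site, rose by 1.47 in KO muscle (adjusted p = 3.60e-05) and passed in WT muscle too. Rcan1, an inhibitor and target of calcineurin, was 2.15-fold lower in KO than in WT denervated muscle (adjusted p = 0.0188).

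Of 16 partners and inhibitors of MYC and EGR tested, 2 were higher and 4 lower in KO, and 3 higher and 4 lower in WT denervated muscle. The shares that passed, 37.5% and 43.8%, were near the 47.0% and 39.2% of all genes. Mycl, a MYC relative not well above background on control arrays, was at least 17.0-fold higher in KO denervated and at least 11.2-fold higher in WT denervated muscle. Its probe passed the filter only through the denervated groups, where it was high. Its count among the higher genes is thus not independent of the filter. Mxi1, which competes with MYC for Max, fell by 1.02 in KO and fell by 0.62 in WT muscle. Of 26 MYC target genes, 9 were higher and 4 lower in KO, and 8 higher and 2 lower in WT muscle. These 13 and 10 genes are likewise shares near those of all genes. Odc1, the first enzyme of polyamine synthesis, rose 2.83-fold in KO and 3.68-fold in WT muscle.

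None of the 19 genes of glucose and lipid use reported to respond to Nr4a1 or Nr4a3 in rodent muscle was higher. In KO denervated muscle 15 were lower, 78.9%, with a median of -1.58, and in WT denervated muscle 14, 73.7%, with a median of -1.16. Over all genes 23.2% were lower in KO and 20.6% in WT muscle. The list was chosen with earlier results of these data known, so this comparison is not independent. The muscle identity genes, of which 7 of 10 were lower in KO and 2 of 10 in WT muscle, moved with this list in KO muscle, and their part in it was not tested. Fbp2, the muscle fructose bisphosphatase, fell by 3.50 in KO (adjusted p = 5.19e-07) and fell by 3.85 in WT muscle (adjusted p = 3.28e-07). Phkg1, the catalytic subunit of phosphorylase kinase, fell by 1.85 in KO and fell by 1.84 in WT muscle. Slc2a4, the insulin-responsive glucose transporter, fell by 2.13 in KO muscle (adjusted p = 3.82e-06). Pgam2, a muscle enzyme of glycolysis, was lower in KO than in WT denervated muscle (-0.71 ± 0.15, adjusted p = 0.0357). In the same comparison all 10 muscle identity genes had differences below 0, from -0.54 to -0.02 with a median of -0.39, and none passed the test. Their part in the Pgam2 value was not tested.

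**Figure D4:**
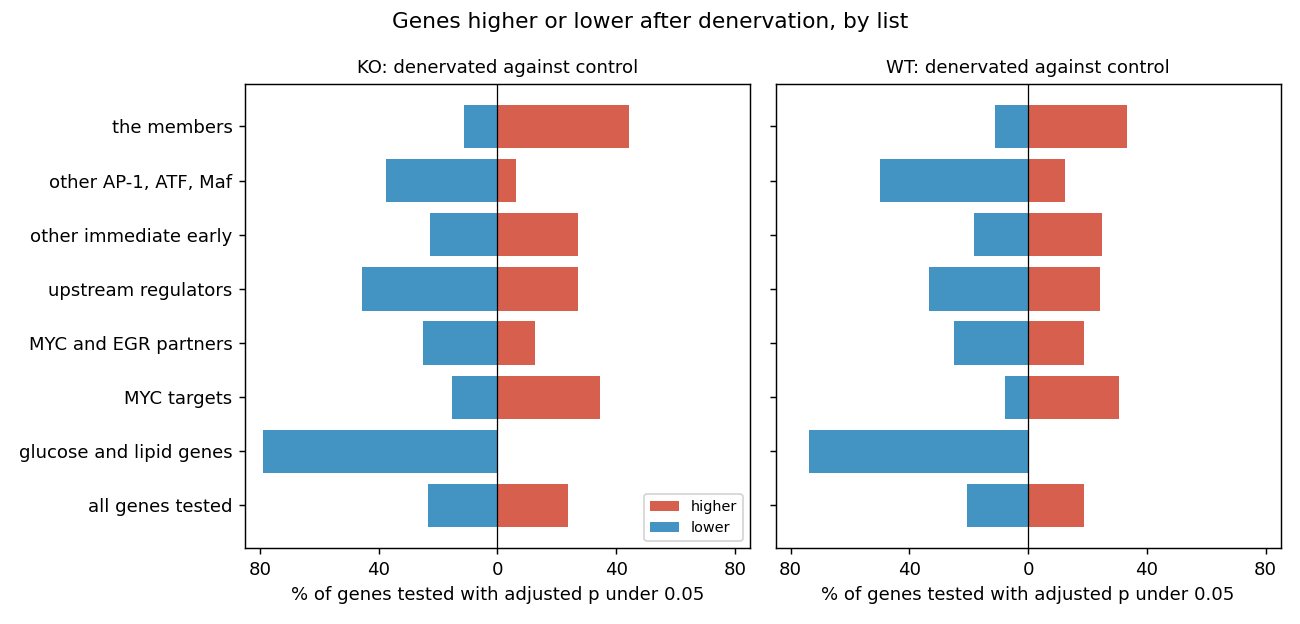
Share of the genes tested (horizontal axis, %) that were higher (red) or lower (blue) in denervated than in control muscle at an adjusted p under 0.05, for each list and for all genes tested. The glucose and lipid list has no gene on the higher side in either genotype, and the other AP-1, ATF and Maf list has more lower than higher.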

How the data were processed

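Total RNA of 12 gastrocnemius muscles was hybridised with Cy3 label to one-colour Agilent arrays. Deposited were each array's scanner readings, an intensity for every spot. Feature Extraction 10.7.3.1 had subtracted background and detrended them without scaling between arrays, per the file headers, whereas the submitters' processing notes name Agilent Feature Extraction 10.5.1.1. The deposited table of processed values, also intensity, was used as an alternative. Of 43379 non-control spots for 41174 probes, those marked as outliers were dropped and the remainder averaged per probe. Each array's log2 signals were centred on its own 75th percentile. Symbols came through a RefSeq table (GRCm38.p6). Probe positions are the files' (mm8), and no genome was used.

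The fit used limma 3.58.1 (R 4.3.3; all 12 arrays, 4 group means, 6 contrasts, two-sided, Benjamini-Hochberg over 15226 genes, called at an adjusted p under 0.05). Intervals use the moderated degrees of freedom. The fit was tested on simulated data, with 50 genes shifted at each size in KO denervated arrays. The interaction passed for 0 of 50 at 0.5, 7 of 50 at 1 and 44 of 50 at 2 log2 units. Of 15026 genes without a shift 3 passed. Small differences in response between genotypes would thus mostly be missed. The members and the lists were chosen with earlier results of these data known. Besides the members, up to 4 genes per list with the smallest adjusted p, the 3 most alike per member, and Smad4 could be named. One gene that this rule names is not reported here.

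Same-numbered WT denervated and control arrays deviated together (r of deviations across genes 0.110 to 0.308), while same-numbered KO arrays did not all do so (0.017 to 0.176). The labels do not state a pairing, and this check does not establish one. Same-numbered KO and WT denervated arrays, which differ in genotype, had r of 0.004 to 0.296. WT denervated and WT control replicate 1 (r = 0.308) shared slide 1. KO denervated and KO control replicate 3 (r = 0.176) shared slide 3. Animal and slide cannot be told apart in these pairs. The KO and WT denervated arrays of replicate 1 (r = 0.201) shared slide 1, and those of replicate 2 (r = 0.296) slide 4. The replicate blocks are alternatives only. Alternatives were another background correction, scaling, filter, probe rule or prior, slide and replicate blocks, the deposited values, and leaving out arrays.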

Additional observations from a re-analysis of the deposited data

How the results depend on the processing

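The falls of Nr4a1 and the rises of Jun, Junb and Fosl2 passed the test in both genotypes under all 26 alternatives, with ranges of -3.31 to -2.91 and -3.97 to -2.92 for Nr4a1, 1.53 to 2.06 and 1.99 to 2.47 for Jun, 1.95 to 2.42 and 1.56 to 2.21 for Junb, and 1.32 to 2.34 and 1.06 to 1.68 for Fosl2 (KO, then WT). Of 1377 values of the 9 genes tested under alternatives, 1 call was lost (Myc in KO muscle, mean of kept probes) and 3 were gained. Those gained were Jund in KO muscle without KO denervated replicate 1, and Egr1 and Myc in WT muscle with the block within genotype. Other sign changes were among values that were not called. The replicate block changed no other call of a member on the probe that stands for its gene. The Nr4a3 probe, not above background, differed by -0.64 in KO muscle and by 0.30 with normexp, neither of which is a measured level. Without the filter Nr4a3 was called lower in KO denervated muscle, a call that rests on signal not above background.

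Counts over all genes moved more. With normexp background correction the calls were 2723 for denervation in KO and 1913 in WT muscle, 25 for KO against WT in denervated and 0 in control muscle, 0 for the interaction and 6 for the average, against 7150, 5975, 333, 1, 28 and 140. Without the filter they were 195 in denervated and 0 in control muscle, 5 for the interaction and 60 for the average, and 34.6% of the KO denervation calls were higher, against 50.5%. Of the calls between genotypes in denervated muscle, 32.4% were higher with array median scaling and 68.0% with normexp, against 43.8%. In control muscle the count was 5 with quantile or median scaling, 4 with the mean of kept probes or the deposited values, 3 with an intensity trend, 2 with probes above background on all arrays, and 0 with the slide as a fixed block, with the replicate block, or without both KO replicate 1 arrays, an alternative chosen after seeing the data. The interaction count was 12 with probes above background on all arrays, 1 with the slide as a fixed block and 9 with the replicate block within genotype. Leaving out 1 array gave 6105 to 7223 calls for denervation in KO, 4814 to 6121 in WT muscle, 148 to 325 between genotypes in denervated and 0 to 2 in control muscle, 5 to 51 for the interaction and 80 to 130 for the average. The lowest counts between genotypes in denervated muscle, 150 and 148, came without KO denervated replicate 2 and without WT denervated replicate 2. The cause of these shifts was not tested. With 3 arrays a group the precision is limited, and the dim probes of Fosl2, Myc and Nr4a3 lie near background.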
